A study of Mus musculus with 22 samples.

Results

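The CD45-positive cells of EMT6 tumours treated with JQ1 and paclitaxel were compared with those of tumours treated with JQ1 alone. The comparison rests on 4 of the 22 RNA libraries of the series, 2 in each group, and on 10340 of the 24353 genes listed for the CD45-positive fraction, namely those with at least 1 FPKM (fragments per kilobase of transcript, scaled to the number of mapped fragments) in at least 2 of its 10 libraries. EMT6 is a mouse mammary carcinoma line. Injections held 200000 cells, as the labels give it, and went into both inguinal mammary pads of wild type BALB/c mice aged 5 to 6 weeks, and treatment began when tumours could be felt, about day 5 to 7. Dissociated tumours were parted with magnetic beads against CD45, the surface phosphatase of leukocytes, and both fractions were sequenced. Both groups compared received JQ1 at 50 mg/kg by daily gavage, and 1 of them also received paclitaxel at 10 mg/kg by intraperitoneal injection, 2 times a week. No group received paclitaxel without JQ1. Vehicle, JQ1 with an anti-PD-L1 antibody at 10 mg/kg, and JQ1 with both paclitaxel and the antibody (the 3-drug group) each gave 2 further CD45-positive libraries.

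The JQ1 tumours are titled C1_4R (replicate 1) and C1_4L (replicate 2), and the tumours with paclitaxel C3_4L (replicate 1) and C3_1R (replicate 2). The labels do not spell these codes out. If the code before the side names a mouse, the JQ1 libraries are the right and left tumour of 1 animal and the paclitaxel libraries come from 2 animals, so the p-values measure a spread between tumours that may be smaller than that between animals. The C code cannot be told apart from the treatment.

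JQ1 occupies the acetyl-lysine pocket of BET bromodomain proteins and lowers transcription that depends on them, including that of many inflammatory genes. Paclitaxel binds beta-tubulin in microtubules, stabilises the polymer and arrests dividing cells in mitosis. Cells adjust the stability of tubulin mRNA to the pool of free tubulin dimers. The CD45-positive cells of a mammary tumour are mostly macrophages and monocytes, with neutrophils, dendritic cells and lymphocytes.

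In each of the 4 libraries macrophage genes dominated the lineage markers. The summed FPKM of 21 macrophage and monocyte genes was 19437 and 22430 in the JQ1 libraries and 34007 and 24431 in the libraries with paclitaxel. Ptprc, which encodes CD45, read 73.2 and 51.2 FPKM with JQ1 and 38.6 and 40.1 FPKM with paclitaxel, and its difference of log2(FPKM + 1) was −0.63 ± 0.27 (standard error, adjusted p = 0.488 in limma). The sum over 12 pan-leukocyte genes was 3840 and 3494 against 3147 and 2947 FPKM, so all 4 libraries carried leukocyte RNA and both libraries with paclitaxel lay below both with JQ1. FPKM give no read totals and the absolute depth is unknown. The depth relative to the geometric mean of the fraction, read from the steps between low values, was 0.862 and 1.28 for JQ1 and 0.905 and 0.629 for JQ1 with paclitaxel. Across genes, log2 values correlated at r = 0.938 between the JQ1 replicates and 0.965 between the paclitaxel replicates, while JQ1 replicate 2 and paclitaxel replicate 1 correlated at 0.968. JQ1 replicate 1 thus stood farther from its own replicate than JQ1 replicate 2 stood from a tumour of the other group.

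No gene passed an adjusted p of 0.05 in limma (0% of genes, against 1038 genes or 10% at an unadjusted p under 0.05). The lowest adjusted p was 0.0512, and 13 higher and 35 lower genes had an adjusted p under 0.1. The number of genes called was 61 without JQ1 replicate 2, 28 without paclitaxel replicate 1, 3 without paclitaxel replicate 2 and 0 without JQ1 replicate 1. The lowest adjusted p was 0.420 when only the 4 compared libraries were fitted (779 genes at an unadjusted p under 0.05), 0.743 with 1 value per mouse code (504 genes) and 0.418 with relative depth as a covariate (655 genes). Of the 1038 genes, 294 (2.84%) were higher with paclitaxel and 744 (7.2%) lower. Both paclitaxel libraries lay above both JQ1 libraries in 1084 genes (10.5%) and below them in 2771 genes (26.8%), so 37.3% of all genes had groups that did not overlap. The median difference over all genes was −0.09, and the split of higher and lower genes followed the scaling. At unadjusted p under 0.05 it was 546 higher and 449 lower with libraries centred on their medians (median 0.05), 463 and 547 after quantile normalization, and 990 and 236 with libraries centred on the 12 pan-leukocyte genes (median 0.26). Differences below are therefore to be read beside the all-gene median of −0.09, which moves with the scaling. Counts of list members are to be read beside the shares of all genes given above. No gene is called changed. A difference is that of log2(FPKM + 1), paclitaxel group minus JQ1 group, ± its standard error, which rests on a spread pooled over all 5 groups of the fraction and so is the same for a gene in every comparison of 2 with 2 libraries. The difference understates the change of low genes. A gene can pass the filter of 1 FPKM in 2 libraries through the group where it is high, which favours its lack of overlap. Of the 4 compared libraries, Lum and Ccr8 below, among others, reached 1 FPKM only in the group where they were high.

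**Figure D1:**
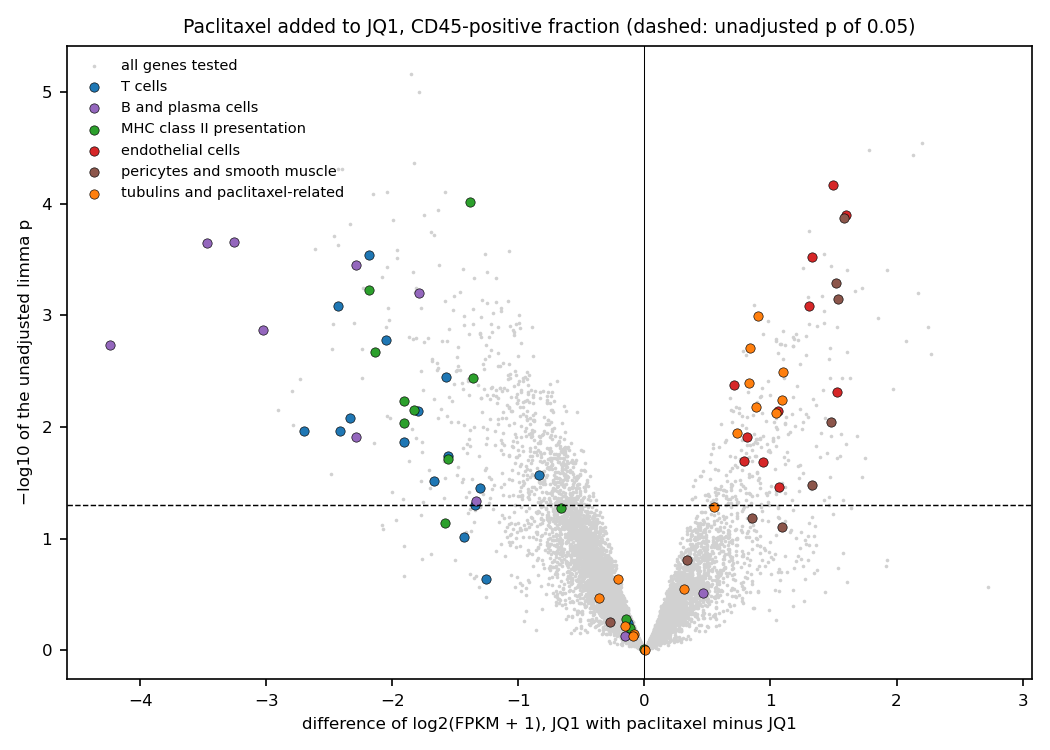
The difference of log2(FPKM + 1) between JQ1 with paclitaxel and JQ1 (horizontal axis) against −log10 of limma's unadjusted p (vertical axis) for 10340 genes, with 6 gene lists in colour. T cell, B cell and MHC class II genes lie to the left with medians of −1.67, −2.29 and −1.56, and endothelial, pericyte and tubulin genes to the right with medians of 1.07, 1.33 and 0.64.

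On the lower side, the lists of B cell and T cell genes had the lowest medians. B cell genes had the lowest median of the 39 gene lists described, −2.29 over 10 tested genes. Of these, 7 had paclitaxel libraries below both JQ1 libraries, 1 above, and 8 had an unadjusted p under 0.05, all lower. Cd79a, the signalling chain of the B cell receptor, read 110 and 102 FPKM with JQ1 and 21.3 and 0.443 FPKM with paclitaxel (−4.24 ± 0.97, adjusted p = 0.140). Its partner Cd79b read 21.3 and 15.4 FPKM, against 3.02 FPKM and a value listed at 0. Fcmr, the Fc receptor for IgM, read 28.4 and 18.7 against 3.72 and 0 FPKM (−3.47 ± 0.59, adjusted p = 0.0931). Both groups were apart in all 3 genes, and paclitaxel replicate 2 was the lowest library in each. The inhibitory lectin Cd22 read 6.71 and 8.74 FPKM with JQ1 and 1.95 and 0.0683 FPKM with paclitaxel. Of the plasma cell genes, Sdc1 and Jchain were not lower without overlap. By sign alone, 1 of the 10 tested genes of the list was higher and 9 were lower. Sdc1, which stromal and tumour cells also express, was higher in the paclitaxel mean (16.1 and 9.63 against 19.1 and 16.1 FPKM), and Jchain, the joining chain of secreted immunoglobulin, overlapped at 0.928 and 0.689 against 1.63 and 0 FPKM. The B cell median was −1.51 without paclitaxel replicate 2, −3.16 without paclitaxel replicate 1 and −2.54 without JQ1 replicate 1.

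Among T cell genes the paclitaxel libraries lay below both JQ1 libraries in 12 of 17 tested genes and above them in none, and 13 of 17 had an unadjusted p under 0.05, with a median of −1.67. Cd3e and Cd3g, invariant chains of the T cell receptor complex, read 35.4 and 10.6 against 3.67 and 2.13 FPKM, and 18.3 and 10.1 against 3.74 and 1.64 FPKM. Cd3e was 7.94-fold lower in the mean with paclitaxel (−2.43 ± 0.49, adjusted p = 0.122). Tcf7, a transcription factor of naive and memory-like T cells, read 14.8 and 8.05 FPKM with JQ1 and 2.69 and 0.871 FPKM with paclitaxel (−2.19 ± 0.38, adjusted p = 0.094). Cd8b1, a chain of the CD8 co-receptor, read 4.67 and 2.79 against 0.716 and 0.412 FPKM. JQ1 replicate 1 was the highest of the 4 libraries in each of these genes, and also in Lck, the proximal kinase of the receptor, at 32.0 FPKM against 8.76 in JQ1 replicate 2 and 4.86 and 1.15 with paclitaxel. Cd4 overlapped between the groups (6.79 and 1.63 against 1.85 and 0.177 FPKM), as did the interleukin 7 receptor Il7r (13.9 and 1.76 against 1.22 and 2.26 FPKM). The T cell median was −0.88 without JQ1 replicate 1, when 5 of 17 genes had an unadjusted p under 0.05, and −2.59 without JQ1 replicate 2, when 16 did. Without paclitaxel replicate 2 the count was 4.

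Cytotoxic and NK cell genes differed less. Their median was −0.94 over 11 tested genes, of which 8 were lower without overlap, none was higher, and 6 had an unadjusted p under 0.05. Prf1, the pore-forming protein of cytotoxic granules, read 6.11 and 5.96 FPKM with JQ1 and 2.86 and 1.92 FPKM with paclitaxel (−1.07 ± 0.23, adjusted p = 0.132). The granzyme Gzma read 5.65 and 6.98 against 1.87 and 2.86 FPKM, and the granule protein Nkg7 21.4 and 17.3 against 5.74 and 6.07 FPKM. In these 3 genes the 2 JQ1 libraries stood close together, unlike in the T cell receptor genes, and without JQ1 replicate 1 the list's median was −0.71 with 6 of 11 genes at an unadjusted p under 0.05. Without paclitaxel replicate 2 the count was 3. All 11 tested checkpoint and regulatory T cell genes had paclitaxel libraries below both JQ1 libraries, with a median of −1.07 and 6 at an unadjusted p under 0.05. Ctla4, an inhibitory receptor of activated and regulatory T cells, read 5.13 and 2.66 against 1.42 and 0.731 FPKM. The co-stimulatory receptor Tnfrsf18 read 16.6 and 4.28 against 1.59 and 0.608 FPKM, and the chemokine receptor Ccr8 of tumour regulatory T cells read 1.61 and 1.09 against 0.180 and 0.129 FPKM. The median of this list was −0.69 without JQ1 replicate 1, and 3 of 11 genes then had an unadjusted p under 0.05. Leaving out either 3-drug replicate gave 10 such genes; these libraries enter the shared estimate of the spread.

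The JQ1 libraries were themselves high in T cell, B cell, and cytotoxic and NK cell genes. The summed FPKM of 19 T cell genes was 36.5 and 29.6 in vehicle tumours, 267 and 70.0 with JQ1, 37.8 and 13.6 with JQ1 and paclitaxel, 24.8 and 26.6 with JQ1 and the antibody, and 87.5 and 28.9 in the 3-drug group. That of 12 B cell and plasma cell genes read 38.4 and 39.0 in vehicle tumours, 225 and 189 in JQ1 tumours, and 62.4 and 16.7 with paclitaxel added. Cytotoxic and NK cell genes summed to 26.2 and 19.0 in vehicle, 73.9 and 77.5 in JQ1 and 25.1 and 24.4 with paclitaxel. The JQ1 libraries lay above the libraries of every other group in these 3 sums, except that the 3-drug replicate 1 exceeded JQ1 replicate 2 in the T cell sum. In bulk RNA, fewer cells of a type and less RNA per cell cannot be told apart. As a share of the pan-leukocyte sum, the T cell sum was 6.96% and 2.0% with JQ1 and 1.2% and 0.462% with paclitaxel, and the B cell sum 5.87% and 5.42% against 1.98% and 0.567%, so the order of the groups was the same on this scale.

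**Figure D2:**
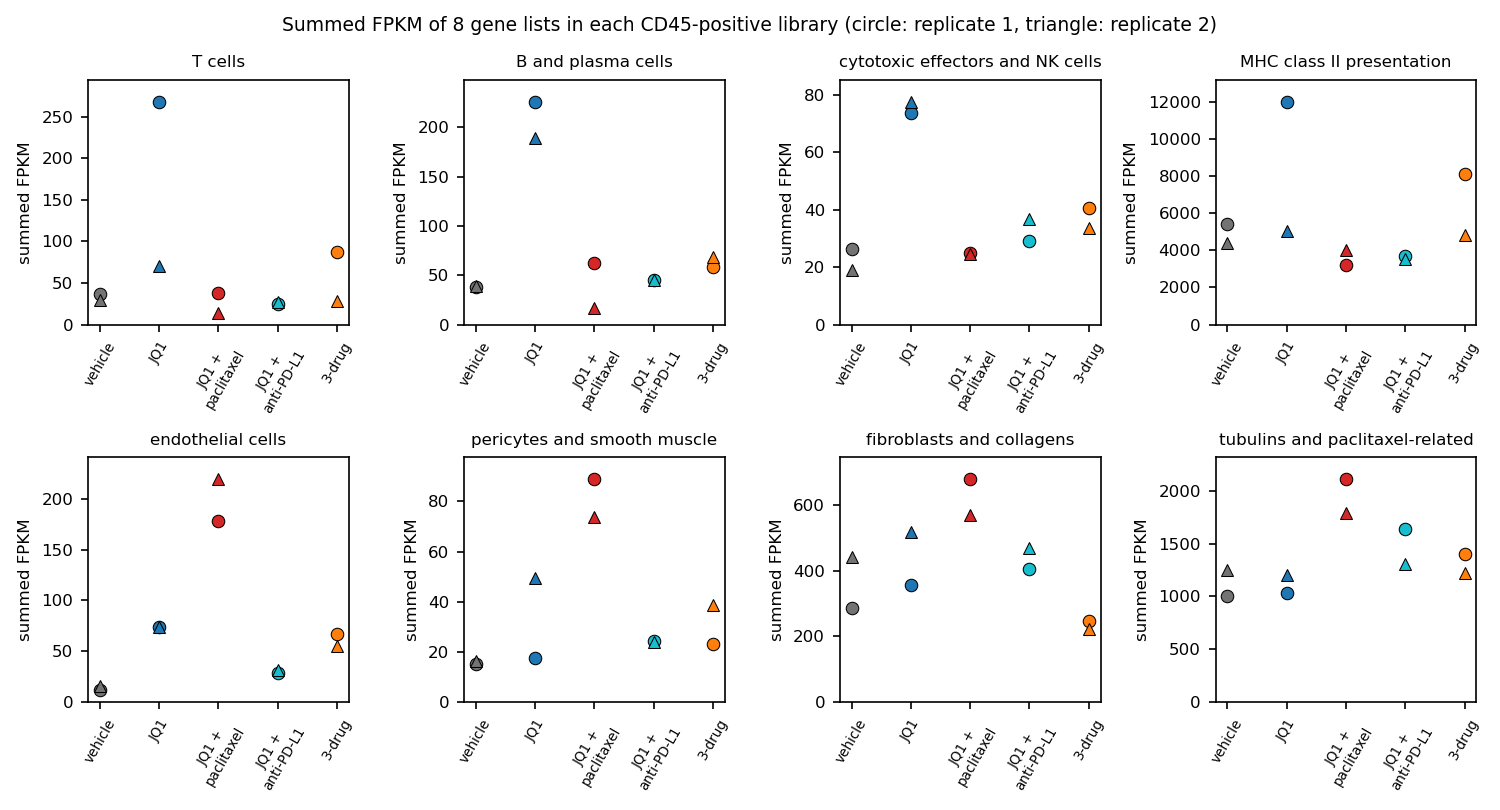
Summed FPKM of 8 gene lists (vertical axes, from 0) in each of the 10 CD45-positive libraries, by treatment group, with a circle for replicate 1 and a triangle for replicate 2. In the panels of T cells, B cells and NK cells the JQ1 libraries stand above those with paclitaxel (267 and 70.0 against 37.8 and 13.6 for T cells), and in the endothelial panel the paclitaxel libraries, at 178 and 219, stand above the other groups.

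MHC class II genes were lower with the lymphocyte genes. Class II molecules present peptides from endocytosed protein to CD4 T cells and are made by B cells, dendritic cells and activated macrophages. Their transcription depends on CIITA, a co-activator without DNA contact of its own that is recruited by the factors bound to the X and Y boxes upstream of class II genes. Ciita read 3.15 and 3.12 FPKM with JQ1 and 0.645 and 0.521 FPKM with paclitaxel (−1.38 ± 0.21, adjusted p = 0.0767), the smallest p of the list. Of 13 tested genes of the class II pathway, 9 had paclitaxel libraries below both JQ1 libraries and none above, 8 had an unadjusted p under 0.05, and the median was −1.56.

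The sequences upstream of 4 class II genes are shown because each holds at least 1 of the boxes through which CIITA acts. RefSeq promoters (GRCm38.p6) were found for 10 of the 13 tested genes, and the 250 bases before the annotated start are printed, read along the gene's strand. They lie at chr17:34287824-34288073 for H2-Aa (minus strand), chr17:34305617-34305866 for H2-Eb1, chr17:34152941-34153190 for H2-DMb1 and chr17:34144999-34145248 for H2-DMb2 (plus strand). Capitals mark the Y box core GATTGG, an inverted CCAAT box, and the X box spelling CTNGNAAC, both searched on both strands and chosen with these promoters in view. The shares given after the sequences are therefore no test of enrichment. The 10 class II entries counted there are genes, each matched if any of its promoters matched. The shares of all promoters count single promoters.
H2-Aa: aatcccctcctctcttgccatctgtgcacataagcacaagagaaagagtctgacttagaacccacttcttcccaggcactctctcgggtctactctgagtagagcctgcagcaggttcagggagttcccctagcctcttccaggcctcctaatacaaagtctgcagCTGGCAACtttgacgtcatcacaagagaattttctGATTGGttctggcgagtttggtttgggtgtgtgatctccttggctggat
H2-Eb1: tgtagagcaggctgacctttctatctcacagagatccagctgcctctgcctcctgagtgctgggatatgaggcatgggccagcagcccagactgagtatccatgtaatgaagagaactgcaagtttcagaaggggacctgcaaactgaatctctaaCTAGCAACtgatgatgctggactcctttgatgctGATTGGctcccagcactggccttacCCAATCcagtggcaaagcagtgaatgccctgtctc
H2-DMb1: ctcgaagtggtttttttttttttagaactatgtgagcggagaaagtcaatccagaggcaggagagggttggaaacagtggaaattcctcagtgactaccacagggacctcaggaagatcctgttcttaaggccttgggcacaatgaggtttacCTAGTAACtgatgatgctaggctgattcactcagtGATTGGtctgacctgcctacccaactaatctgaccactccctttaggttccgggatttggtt
H2-DMb2: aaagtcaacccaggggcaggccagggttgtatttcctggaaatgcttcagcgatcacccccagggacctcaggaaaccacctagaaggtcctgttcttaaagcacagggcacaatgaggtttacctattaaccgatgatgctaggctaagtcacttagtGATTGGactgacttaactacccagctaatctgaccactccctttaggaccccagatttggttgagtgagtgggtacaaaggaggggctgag
GATTGG or its reverse complement was found in 7 of the 10 class II pathway promoters and in 14.6% of 32851 RefSeq mouse promoters over the same 250 bases. CTNGNAAC was found in 4 of the 10 and in 10.9% of all promoters. In H2-Aa the X box spelling begins 84 and the Y box core 49 bases before the start. In H2-Eb1 they begin 94 and 60 bases before it, and in H2-DMb1 97 and 62. In H2-DMb2 only the Y box core was matched, 91 bases before its start. The X box spelling is strict, so the lack of a match does not show that H2-DMb2 has no X box. The match is of letters only.

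The classical chains and the invariant chain were abundant. H2-Ab1 read 1905 and 679 FPKM with JQ1 and 257 and 397 FPKM with paclitaxel, H2-Aa 1284 and 475 against 159 and 270 FPKM, and H2-Eb1 712 and 221 against 83.9 and 131 FPKM. The invariant chain Cd74 read 5607 and 1930 against 793 and 1576 FPKM. In each of these 4 genes JQ1 replicate 1 was the highest of the 4 libraries and paclitaxel replicate 1 the lowest, and the difference for H2-Ab1 was −1.83 ± 0.53 (adjusted p = 0.242). H2-DMb2, the beta chain of the peptide-exchange factor DM, read 195 and 102 against 32.3 and 28.5 FPKM (−2.18 ± 0.42, adjusted p = 0.112), but its neighbour H2-DMb1 overlapped, at 135 and 32.0 against 13.3 and 33.9 FPKM. The near-identical DM beta copies share sequence, so the split of reads between them is uncertain. H2-Ob and H2-Oa, which form the DM inhibitor DO of B cells and some dendritic cells, read 9.53 and 2.24 against 0.756 and 0 FPKM, and 5.95 and 4.57 against 1.71 and 1.16 FPKM. The proteases of the pathway did not follow the chains. The cathepsin Ctss read 1440 and 945 against 1132 and 1025 FPKM (−0.11 ± 0.23), and the reductase Ifi30 (−0.15 ± 0.22) and legumain (Lgmn, −0.01 ± 0.24) overlapped as well. The list's median was −1.07 without JQ1 replicate 1, with 5 of 13 genes at an unadjusted p under 0.05, and −2.33 without JQ1 replicate 2, with 10. Without paclitaxel replicate 1 the count was 4. The summed class II genes were 312% and 145% of the pan-leukocyte sum with JQ1 and 101% and 136% with paclitaxel. Their summed FPKM was 5405 and 4381 in vehicle, 11989 and 5061 with JQ1, and 3190 and 3998 with JQ1 and paclitaxel. JQ1 replicate 2 thus lay between the vehicle libraries in this sum.

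Dendritic cell markers had a median of −0.71 over 18 tested genes, of which 12 were lower without overlap, none was higher and 6 had an unadjusted p under 0.05. Ccr7, which guides mature dendritic cells and naive lymphocytes to lymph nodes, read 145 and 54.7 FPKM with JQ1 and 19.3 and 15.4 FPKM with paclitaxel (−2.30 ± 0.49, adjusted p = 0.132). The integrin Itgax read 12.1 and 10.6 against 4.85 and 4.85 FPKM, and Siglech of plasmacytoid dendritic cells 1.39 and 2.26 against 0.467 and 0.285 FPKM. Flt3, the growth factor receptor of the lineage, read 0.842 and 2.74 against 0.285 and 0.372 FPKM. Of the markers of type 1 dendritic cells, Xcr1 overlapped (1.28 and 0.312 against 0.190 and 0.910 FPKM) and Irf8 differed by −0.37 ± 0.32. The dendritic cell median was −0.46 without JQ1 replicate 1, the library highest in Ccr7, and −0.35 with libraries centred on the pan-leukocyte genes, when 3 genes had an unadjusted p under 0.05. Ccr7 and the DM and DO chains are also expressed by B cells, whose part in these values was not tested.

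The lower genes of smallest p held further leukocyte genes. Napsa, an aspartic protease, read 29.2 and 37.6 FPKM with JQ1 and 8.67 and 8.23 FPKM with paclitaxel (−1.85 ± 0.20, adjusted p = 0.0512). Cytip, which binds the integrin regulator cytohesin in lymphocytes and dendritic cells, read 22.5 and 23.7 against 6.37 and 5.63 FPKM (−1.79 ± 0.20, adjusted p = 0.0512). Both genes had replicates close together and groups far apart, as their choice by small p and lack of overlap favours. Both passed an adjusted p of 0.05 in limma when only the 5628 genes with a mean FPKM of at least 5 were tested. That filter adjusts over fewer genes and adds no independent evidence. Vehicle tumours read 36.6 and 30.4 FPKM for Napsa, so for this gene JQ1 stood at the vehicle level and paclitaxel below it, whereas Cytip read 8.01 and 6.27 FPKM in vehicle, the level with paclitaxel. Ltb, a cytokine of lymphocytes, read 34.7 and 19.0 against 5.08 and 3.03 FPKM, and Il2rb, the interleukin 2 receptor chain of T and NK cells, 28.1 and 16.8 against 3.46 and 3.18 FPKM. Lsp1, an actin-binding protein of leukocytes, read 80.5 and 68.0 FPKM with JQ1, 28.6 and 18.7 with paclitaxel, and 107 and 106 in vehicle. Hp, the haemoglobin scavenger haptoglobin, read 35.5 and 25.9 against 8.04 and 8.61 FPKM, again with vehicle (30.5 and 26.1) at the JQ1 level. Fam107b, P2ry10, Sorl1, Hip1r and Acap1 differed by −1.58 to −2.46, with adjusted p from 0.0704 to 0.0875. Restricting the test to the 4042 genes at least as high in the CD45-positive as in the CD45-negative libraries of the same tumours gave 8 genes past an adjusted p of 0.05 in limma. Of these, 5 were lower, among which were Napsa, Cytip, Ltb and Il2rb. This filter also adjusts over fewer genes and adds no independent evidence. The means it uses include the compared libraries.

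**Figure D3:**
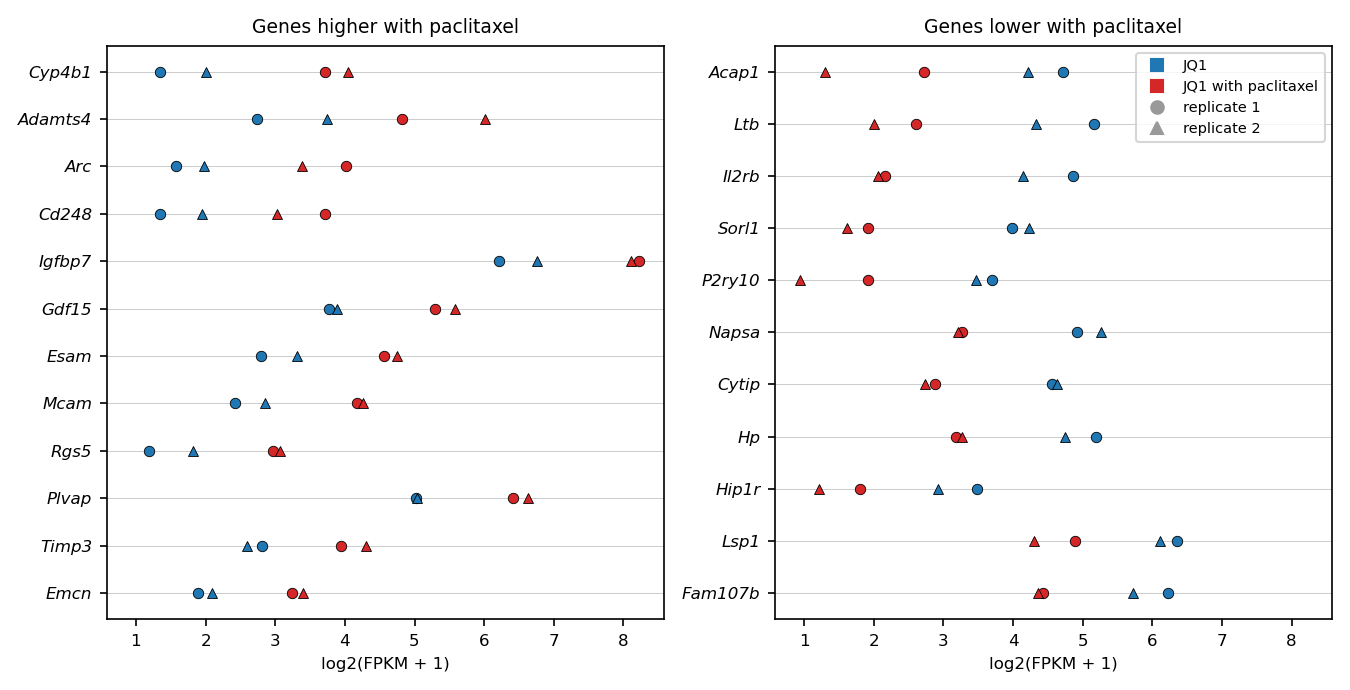
log2(FPKM + 1) of the higher and lower genes of smallest p that met the level and overlap conditions (rows), in the 2 JQ1 libraries (blue) and the 2 libraries with paclitaxel (red), circle for replicate 1 and triangle for replicate 2. The groups are apart in each gene shown, as the choice of genes requires. Napsa and Cytip, at −1.85 and −1.79, had the smallest p of the lower genes.

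On the higher side, genes of the vessel wall stood out. All 11 tested endothelial genes had paclitaxel libraries above both JQ1 libraries and an unadjusted p under 0.05, with a median of 1.07. Plvap, which forms the diaphragms of endothelial fenestrae and caveolae, read 31.5 and 31.7 FPKM with JQ1 and 84.5 and 98.4 FPKM with paclitaxel (1.5 ± 0.22, adjusted p = 0.0704), a 2.89-fold higher mean. The junction protein Esam read 5.93 and 8.95 against 22.6 and 25.9 FPKM (1.60 ± 0.25, adjusted p = 0.0812), and the sialomucin Emcn 2.73 and 3.25 against 8.46 and 9.54 FPKM. Kdr, the main receptor for VEGF, read 1.64 and 1.46 against 4.30 and 6.46 FPKM, and Pecam1, an adhesion molecule also found on leukocytes, 10.4 and 8.45 against 15.3 and 19.3 FPKM. The gene of highest fold among those named, Cyp4b1, a fatty acid hydroxylase, read 1.55 and 3.04 FPKM with JQ1 and 12.2 and 15.5 FPKM with paclitaxel (2.20 ± 0.28, adjusted p = 0.0631). The median of the endothelial list was at least 1.05 under each of 21 alternatives, and 7 of its genes had an unadjusted p under 0.05 without JQ1 replicate 2. Endothelial cells carry no CD45, yet the summed endothelial genes of the CD45-positive library were 234% and 318% of those in the CD45-negative library of the same JQ1 tumour, and 269% and 455% with paclitaxel. Their sum was 11.3 and 15.5 FPKM in vehicle, 73.4 and 74.1 with JQ1 and 178 and 219 with paclitaxel, so both libraries with paclitaxel lay above the other 8. How endothelial RNA came into the CD45-positive fraction, and its part in this difference, was not tested.

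Pericyte and smooth muscle genes had a median of 1.33 over 9 tested genes, of which 6 were higher without overlap, none lower, and 5 had an unadjusted p under 0.05. Mcam, an adhesion molecule of pericytes and endothelium, read 4.38 and 6.21 against 17 and 18.2 FPKM (1.58 ± 0.25, adjusted p = 0.0812). Rgs5, a pericyte regulator of G protein signalling, read 1.28 and 2.51 against 6.83 and 7.42 FPKM, and the PDGF receptor Pdgfrb 1.92 and 6.46 against 14.1 and 10.2 FPKM. JQ1 replicate 1 was lower than JQ1 replicate 2 in these genes, and the list's median was 0.70 without JQ1 replicate 1 and 1.83 without JQ1 replicate 2. The number of its genes at an unadjusted p under 0.05 was 3 without JQ1 replicate 1, 8 without JQ1 replicate 2 and 3 without paclitaxel replicate 1. The summed pericyte genes were 8.08% and 21.6% of the CD45-negative sum in the JQ1 tumours and 57.0% and 78.9% with paclitaxel. Fibroblast and collagen genes had a median of 0.95 over 18 tested genes, with 14 higher and 1 lower without overlap, and 11 at an unadjusted p under 0.05. Lum, a collagen-binding proteoglycan, read 0.149 and 0.266 against 1.18 and 1.22 FPKM, the matrix protein Postn 3.21 and 7.69 against 17.9 and 15.1 FPKM, and Sparc 43.6 and 90.2 against 204 and 188 FPKM. Without JQ1 replicate 1, 3 of the 18 genes had an unadjusted p under 0.05, and without paclitaxel replicate 1, 5 did. These genes are mainly expressed in the other fraction, where their level was a median of 1574% of that in the CD45-positive fraction. The summed fibroblast genes of the CD45-positive library were 9.37% and 17.6% of those in the CD45-negative library of the same JQ1 tumour, and 15% and 25.2% with paclitaxel, and the part of CD45-negative cells in the CD45-positive fraction in this difference was not tested. With the test restricted to genes at least as high in the CD45-positive fraction, 2 fibroblast genes remained, with a median of −0.08.

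Other higher genes had varied roles. Timp3, an inhibitor of matrix metalloproteases, read 6.03 and 5.03 FPKM with JQ1 and 14.4 and 18.8 FPKM with paclitaxel (1.42 ± 0.25, adjusted p = 0.094). Adamts4, an aggrecan-cleaving protease, read 5.70 and 12.4 against 27.3 and 63.3 FPKM, and Igfbp7, which is abundant in tumour vessels, 73.5 and 108 against 296 and 275 FPKM. Cd248, a marker of tumour pericytes and fibroblasts, read 1.54 and 2.84 against 12.1 and 7.14 FPKM. Gdf15, a stress-induced cytokine and p53 target, read 12.7 and 13.8 against 38.1 and 47.0 FPKM (1.60 ± 0.29, adjusted p = 0.0947), with 9.81 and 5.22 FPKM in vehicle. Arc, an immediate early gene, read 1.97 and 2.95 against 15.1 and 9.47 FPKM. The adipocyte and endothelial fatty acid carrier Fabp4 read 76.8 and 68.9 against 163 and 430 FPKM (1.85 ± 0.39, adjusted p = 0.132).

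Tubulin genes, which encode the target of paclitaxel, were higher together. All 9 alpha and beta tubulin genes tested had paclitaxel libraries above both JQ1 libraries, with differences from 0.55 to 1.1 and a median of 0.88. Tuba1a read 112 and 130 FPKM with JQ1 and 258 and 198 FPKM with paclitaxel (0.90 ± 0.19, adjusted p = 0.129). Tuba1b read 234 and 292 against 507 and 431 FPKM, Tubb2a 58.5 and 38.5 against 107 and 98.3 FPKM, and Tubb5 68.4 and 61.6 against 130 and 104 FPKM. The 4 genes were thus 1.78-fold to 2.12-fold higher in the mean. The rest of the list, 7 genes of other roles, did not share this. Gamma-tubulin (Tubg1, 0.31 ± 0.27), the microtubule-associated protein Map4 (−0.08 ± 0.22), the kinesin Kif5b (0.00 ± 0.21) and the drug efflux pumps Abcb1a (−0.36 ± 0.36) and Abcb1b (−0.09 ± 0.27) overlapped between the groups, as did Abcc1, while the microtubule destabiliser Stmn1 was lower without overlap (−0.21 ± 0.17). Tubulin copies are alike, so the split of reads among them is uncertain. In the CD45-negative fraction of the JQ1 and JQ1 with paclitaxel tumours the same 9 genes were also all higher with paclitaxel, by 0.47 to 0.99 (2 and 3 libraries), and none passed an adjusted p of 0.05 there. On top of JQ1 with the antibody, 8 of the 9 were lower and 1 higher with paclitaxel, with differences from −0.42 to 0.04. The levels of 8 of these genes were higher in the CD45-negative than in the CD45-positive libraries, from 152% for Tuba4a to 428% for Tuba1a, and Tubb6 stood at 88.5%. The summed list read 47.5% and 43.3% of its CD45-negative level in the JQ1 tumours and 58.1% and 43.2% in the tumours with paclitaxel, so paclitaxel replicate 2 lay at the JQ1 share. With the test restricted to genes at least as high in the CD45-positive fraction, 3 genes of the list remained, with a median of −0.09. Of the 9 tubulin genes only Tubb6 was among them, and it was the 1 gene higher, beside 2 lower. This median therefore does not describe the tubulin genes.

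Proliferation genes were lower in the mean. DNA replication genes had a median of −0.56 over 21 tested genes, 16 of them lower without overlap, none higher and 8 at an unadjusted p under 0.05. Rfc4, of the clamp loader, read 7.25 and 5.18 against 3.66 and 1.83 FPKM (−0.98 ± 0.30, adjusted p = 0.270), and the ribonucleotide reductase subunits Rrm1 and Rrm2 read 10.3 and 9.18 against 5.90 and 4.95 FPKM, and 18.0 and 22 against 15.1 and 11.4 FPKM. With relative depth as a covariate none of the 21 had an unadjusted p under 0.05, and paclitaxel replicate 2, without which the median was −0.28 and the count also 0, was the shallowest of the 4 libraries. The count was 1 without JQ1 replicate 1 and 5 without either library of JQ1 with the antibody. G2/M and mitosis genes, which rise in cells held in mitosis, had a median of −0.38 over 24 genes, with 12 lower without overlap, none higher and 1, Top2a, at an unadjusted p under 0.05 (7.48 and 6.78 against 4.28 and 3.76 FPKM). Ccnb2, a mitotic cyclin, overlapped at 12.6 and 5.26 against 6.26 and 1.59 FPKM. With libraries centred on the pan-leukocyte genes the mitosis median was −0.02 and the replication median −0.21. The sums of both lists were larger in the CD45-negative library of each tumour, with the CD45-positive sum of the mitosis list at 23.1% to 34.4% of it.

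The median of the 21 tested genes of macrophages and monocytes was 0.23, 6 higher and 3 lower without overlap, and 1, the lysozyme Lyz1, at an unadjusted p under 0.05 (46.2 and 47.3 against 81.0 and 66.7 FPKM). Of all genes, 10.5% were higher and 26.8% lower without overlap, and 10% had an unadjusted p under 0.05 in limma. The complement component C1qa read 1201 and 1037 against 1914 and 1440 FPKM, and the Fc receptor Fcgr1 25.6 and 10.3 against 7.66 and 7.60 FPKM. This median depended on the scaling and on single libraries. It was −0.03 without paclitaxel replicate 1, 0.55 without paclitaxel replicate 2, 0.05 without JQ1 replicate 1, 0.37 with libraries centred on their medians (5 genes at an unadjusted p under 0.05, all higher) and 0.58 with libraries centred on the pan-leukocyte genes (7 genes, all higher). As a share of the pan-leukocyte sum, the macrophage sum was 506% and 642% with JQ1 and 1081% and 829% with paclitaxel, without overlap. Alternatively activated and resident macrophage genes had a median of −0.16 over 17 genes, and its sign turned under 4 alternatives. It was 0.56 without JQ1 replicate 2, 0.39 with relative depth as a covariate, 0.22 without paclitaxel replicate 2 and 0.20 with pan-leukocyte centring, against −0.54 without JQ1 replicate 1. Arg1, the arginase of suppressive macrophages, read 271 and 248 against 219 and 82.6 FPKM, and Spp1 (osteopontin) 3448 and 4422 against 3117 and 2978 FPKM, both lower without overlap and without reaching an unadjusted p of 0.05. Chil3, a chitinase-like protein of monocytes, read 3.19 and 37.8 against 0.653 and 2.13 FPKM, with most of the JQ1 level in 1 library. Neutrophil genes had a median of −0.95 over 18 tested genes, but 14 of the 18 overlapped. Csf3r, the receptor for G-CSF, read 8.25 and 25 against 3.53 and 4.24 FPKM, and the decoy receptor Il1r2 32.2 and 113 against 12.6 and 21.9 FPKM. S100a8, a subunit of calprotectin, overlapped at 107 and 355 against 47.3 and 114 FPKM. Here JQ1 replicate 2 was the higher one, and the neutrophil median was −0.27 without it and −1.75 without JQ1 replicate 1. The 3 neutrophil genes at an unadjusted p under 0.05 became 11 without JQ1 replicate 1, 6 without paclitaxel replicate 2 and 1 without paclitaxel replicate 1.

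Most interferon and cytokine genes overlapped between the groups, as did 6485 of all 10340 genes tested. In the type I interferon list the overlap, 16 of 26 genes, was near that share. Interferon gamma response genes had a median of 0.13 over 21 tested genes, of which 19 overlapped. The GTPase Iigp1 read 13.5 and 3.79 against 11.3 and 41.8 FPKM, and the chemokine Cxcl10 56.0 and 25 against 46.9 and 90.7 FPKM. Cd274, which encodes PD-L1, read 104 and 22.8 FPKM with JQ1 and 26.5 and 91.5 FPKM with paclitaxel (0.02 ± 0.88), so a high and a low library stood in each group. The interferon gamma median was 1.51 without JQ1 replicate 1, with 8 genes higher at an unadjusted p under 0.05, and −0.95 without JQ1 replicate 2, with 6 lower. It was 0.99 without paclitaxel replicate 1 and −0.49 without paclitaxel replicate 2, so these libraries gave it no fixed direction. Type I interferon response genes had a median of −0.32 over 26 genes, 9 lower and 1 higher without overlap, and a median of 0.04 without JQ1 replicate 1 and −0.59 without JQ1 replicate 2. Inflammatory cytokines and chemokines had a median of 0.35 over 30 genes, of which 25 overlapped, and medians of 0.98 without paclitaxel replicate 1 (6 genes higher at an unadjusted p under 0.05) and −0.12 without paclitaxel replicate 2. The p53 target list, apart from Gdf15, held no gene at an unadjusted p under 0.05, with Cdkn1a at 248 and 283 against 242 and 305 FPKM. Ribosomal protein genes had a median of −0.23 over 25 genes, with 20 lower without overlap and 3 at an unadjusted p under 0.05, with a median of 0.12 when libraries were centred on the pan-leukocyte genes. Of the reporters of BET inhibition, Hexim1, an inhibitor of the elongation factor P-TEFb, read 2.84 and 5.75 against 4.80 and 4.74 FPKM (0.18 ± 0.41), and Myc 10.0 and 14.4 against 16.1 and 11.5 FPKM (0.16 ± 0.25). Both overlapped between the groups, which all carried JQ1.

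The same drug was also added to JQ1 with the anti-PD-L1 antibody, in 4 other libraries, which enter the comparison on JQ1 only through the shared estimate of the spread. There 1 gene, Mir6236, annotated as a microRNA gene, passed an adjusted p of 0.05 (0.00967%, against 920 genes or 8.9% at an unadjusted p under 0.05, 4.85% higher and 4.05% lower), with a difference of −3.47, and was not called without replicate 2 of JQ1 with the antibody. In that comparison 43.1% of genes had groups that did not overlap, 25.7% higher and 17.5% lower. Of the 1038 genes at an unadjusted p under 0.05 on JQ1 alone, 497 (47.9%) had the same sign with the antibody, beside 47.8% of all genes. The share was 70.7% of the 294 higher genes (208) and 38.8% of the 744 lower genes (289). Of all genes, 58.9% were higher and 41.1% lower with paclitaxel on JQ1 with the antibody, so the lower genes stood near the share of all genes. The differences of the 2 comparisons correlated across genes at r = 0.0189, over 10340 genes that are not independent replicates. The test of the difference between them, the interaction of paclitaxel and antibody, called no gene in limma (0% of genes, against 1070 or 10.3% at an unadjusted p under 0.05, 2.43% higher and 7.92% lower), with a lowest adjusted p of 0.166. It called 10 genes without replicate 1 of JQ1 with paclitaxel.

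By list, endothelial genes had medians of 1.07 on JQ1 and 0.36 on JQ1 with the antibody, with 11 and 7 of the 11 genes higher without overlap. Emcn differed by 1.33 ± 0.23 on JQ1 and 1.71 ± 0.23 on JQ1 with the antibody, and Plvap by 1.5 ± 0.22 and 1.39 ± 0.22. With the antibody both stood above the list's median of 0.36, so they do not stand for the whole list. Timp3, which is not in that list, differed by 1.42 ± 0.25 and 1.33 ± 0.25. T cell genes had medians of −1.67 and 0.62, B cell genes −2.29 and 0.56, and class II genes −1.56 and 0.69. H2-DMb2 differed by −2.18 ± 0.42 and 1.34 ± 0.42, with an interaction of −3.52 (adjusted p = 0.205), and Ciita by −1.38 ± 0.21 and 0.69 ± 0.21, with an interaction of −2.08 (adjusted p = 0.205). Cd79b differed by −3.25 ± 0.55 and 1.25 ± 0.55 (interaction −4.50, adjusted p = 0.205). Fibroblast genes had medians of 0.95 and −0.06, and the protease inhibitor Timp1 read 12.1 and 24.5 FPKM with JQ1, 34.0 and 38.6 with JQ1 and paclitaxel, 48.1 and 62.1 with JQ1 and the antibody, and 23.4 and 19.5 with all 3 drugs. Interferon gamma response genes stood at 0.13 on JQ1 and 1.30 with the antibody. No interaction in these lists passed an adjusted p of 0.05.

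**Figure D4:**
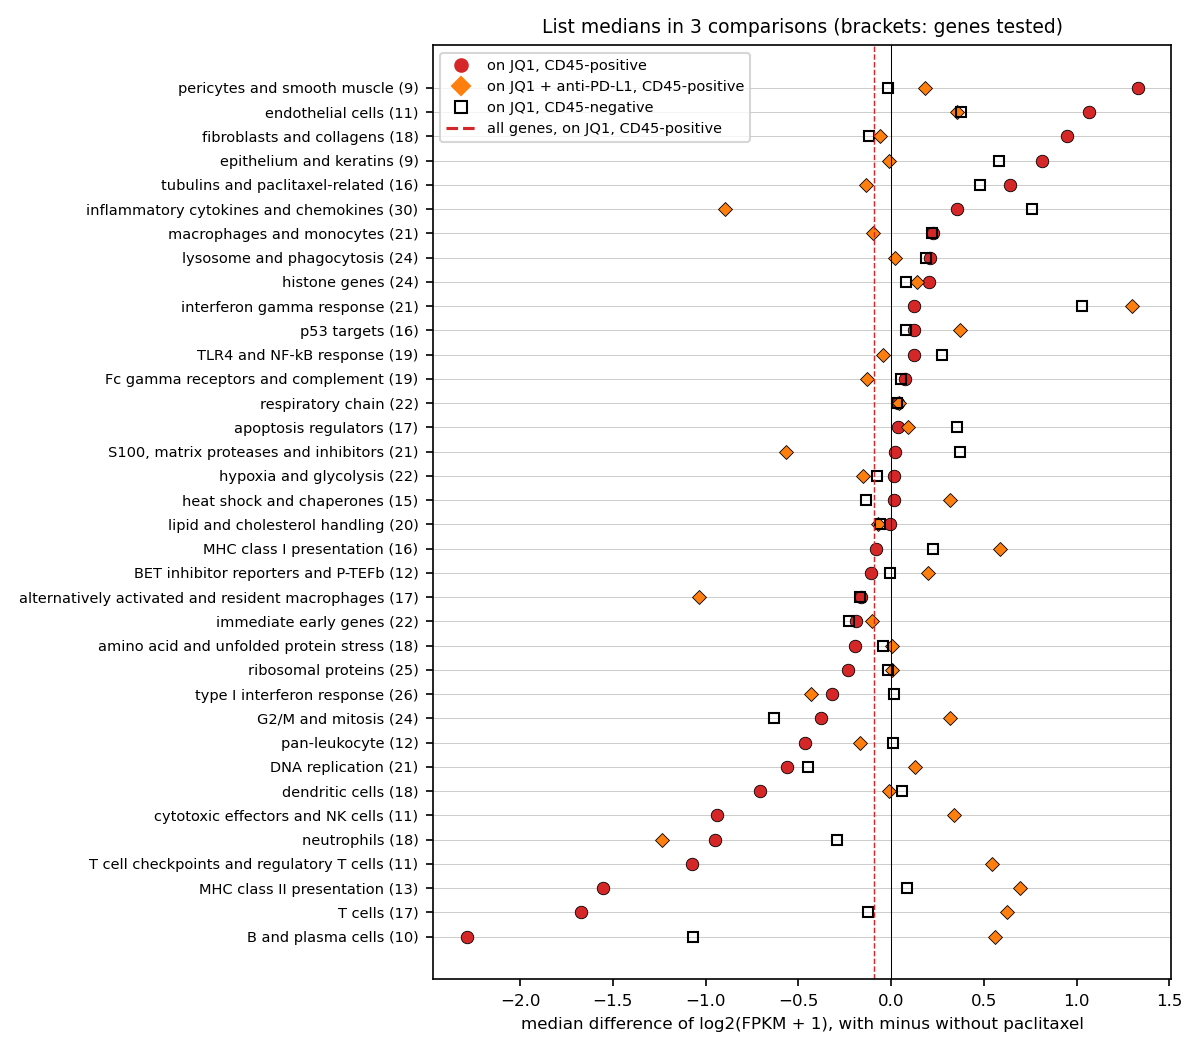
Median difference of log2(FPKM + 1) with minus without paclitaxel for the gene lists with at least 9 tested genes (rows), on JQ1 in the CD45-positive fraction (red circles), on JQ1 with the antibody in the CD45-positive fraction (orange diamonds) and on JQ1 in the CD45-negative fraction (open squares, lists with at least 4 genes tested there). B cell, T cell and class II lists lie at −2.29, −1.67 and −1.56 on JQ1 and at 0.56, 0.62 and 0.69 with the antibody.

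In the CD45-negative fraction of the same treatment groups (2 and 3 libraries), 23 of 10780 genes passed an adjusted p of 0.05 in limma (0.213%), 9 higher (0.0835%) and 14 lower (0.13%). At an unadjusted p under 0.05 the share was 13.4%, 6.17% higher and 7.27% lower. The number called there was 0 without either JQ1 replicate, 45 without paclitaxel replicate 1, 11 without paclitaxel replicate 3, 15 without 3-drug replicate 1 and 35 without 3-drug replicate 2. Asns, the asparagine synthetase, fell there (−1.47 ± 0.23, adjusted p = 0.0313), which in the CD45-positive fraction read 6.65 and 7.57 FPKM with JQ1 and 5.00 and 4.92 FPKM with paclitaxel (−0.44 ± 0.28, adjusted p = 0.664). Mthfd2, a mitochondrial folate enzyme, fell by 1.5 in CD45-negative cells (adjusted p = 0.0213) and read 15.5 and 13.6 against 7.18 and 8.35 FPKM in CD45-positive cells (−0.83 ± 0.22, adjusted p = 0.210). The smooth muscle actin Acta2 fell in CD45-negative cells (−1.40 ± 0.22, adjusted p = 0.0313) and overlapped in CD45-positive cells at 4.76 and 20.6 against 26.0 and 19.8 FPKM. Of the 1038 genes, 844 were also tested in the CD45-negative fraction, and 565 of these (66.9%) had the same sign there, beside 58.2% of the 9618 genes tested in both fractions. The tumours are shared between the fractions, so this share is not independent. The list medians of the CD45-negative fraction were −0.13 for T cells (6 genes tested there) and −1.07 for B cells (4 genes). They were 0.08 for class II (10 genes), 0.38 for endothelial genes (9 genes) and −0.12 for fibroblast genes (18 genes).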

How the data were processed

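The deposited tables give 1 value per gene symbol and library, 10 CD45-positive and 12 CD45-negative. Their unit was read from the values as FPKM, computed by the authors, although the labels speak of counts. Reads were aligned with STAR 2.5.1b to mm9, per the submitters' processing notes. The tool for gene values is not given in the sources used here. Of 24353 symbols, 23723 were current, 543 older and 87 unmatched.

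Within a fraction, every gene that reached 1 FPKM in 2 or more libraries was tested on log2(FPKM + 1) with limma 3.58.1 (R 4.3.3), with a mean for each of 5 groups, a trended prior, 5 residual degrees of freedom in the CD45-positive fraction, and Benjamini-Hochberg adjustment over 10340 genes. All libraries of the fraction shared 1 estimate of the spread. The test script was checked on simulated data. Relative depth came from steps between low values. 75.4% of low values were whole multiples of a step within 0.05, against 9.16% after random scaling. Tables were handled with Python 3.11.15 and pandas 2.3.3, and figures with matplotlib 3.10.9.

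The text names the 12 higher and 12 lower genes of smallest p with a mean log2 value of at least 2 and no overlap, up to 4 genes of smallest p of each list, and Ptprc, Cd274, Hexim1 and Myc. Some genes that meet this rule are not reported here. Other genes were named after their values were seen, namely Cd79a, Sdc1, Jchain, Lck, Cd4, Il7r, Flt3, Xcr1, Pecam1, Cdkn1a, Mir6236, Asns, Mthfd2, Acta2 and the further class II and tubulin genes. Members and the 39 lists were chosen with earlier results of these data known. Alternatives were a pseudocount of 0.1, other filters and scalings, depth as a covariate, library weights, 1 value per mouse code, the 4 libraries alone, and leaving out each library. Centring on the pan-leukocyte genes, and leaving out libraries from the list sums, were added after seeing the data.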

Additional observations from a re-analysis of the deposited data

Results flagged for a closer look

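For 5 gene lists the summed FPKM of both libraries with paclitaxel lay on one side of both libraries without it on JQ1, and on the opposite side on JQ1 with the antibody. The log2 ratio of the T cell sums was −2.71 on JQ1 and 1.18 with the antibody, a difference of −3.89. The T cell ratio on JQ1 was −1.44 without JQ1 replicate 1, and that with the antibody was 0.17 without 3-drug replicate 1. For B cell and plasma cell genes the ratios were −2.39 and 0.48, a difference of −2.88, and for class II genes −1.25 and 0.84, a difference of −2.08. The B cell ratio on JQ1 was −3.63 without paclitaxel replicate 1. The class II ratios were −0.49 without JQ1 replicate 1 and 0.42 without 3-drug replicate 1. DNA replication genes stood at −0.53 and 0.26, a difference of −0.79, with −0.34 on JQ1 without paclitaxel replicate 2 and 0.17 with the antibody without 3-drug replicate 1. Fibroblast and collagen genes went the other way, at 0.51 and −0.90, a difference of 1.41, with 0.27 on JQ1 without JQ1 replicate 1 and 0.80 without JQ1 replicate 2. These differences of sums were not tested. Among 39 sums compared, 5 showed this pattern.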

How the results depend on the processing

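No paired analysis was possible because the labels give the tumours no replicate numbers shared between groups. With 2 libraries a group and no read totals, the precision of low genes is unknown. The count of genes called on JQ1, reported as 0, was 4 with no low-value filter, 2 with a mean FPKM of at least 5, 8 among genes at least as high in the CD45-positive fraction, and 0 to 61 when 1 library was left out. On JQ1 with the antibody, reported as 1, it was 2 with a pseudocount of 0.1 or with pan-leukocyte centring, and 0 with depth as a covariate, no low-value filter, 1 value per mouse code or only genes at least as high in the CD45-positive fraction, with 0 to 2 when 1 library was left out. The interaction, reported as 0, gave 1 with pan-leukocyte centring and 0 to 10 when 1 library was left out. It could not be fitted on the 4 compared libraries alone. In the CD45-negative fraction, reported as 23, the count was 0 with depth as a covariate and 0 to 45 when 1 library was left out. Restricted filters test fewer genes, and otherwise the cause was not tested.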

Other observations

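Within each group 1 library was high and 1 low in interferon response genes. The summed FPKM of 23 interferon gamma response genes was 788 and 274 in the JQ1 libraries and 335 and 676 with paclitaxel, and that of 26 type I interferon response genes 448 and 217 against 232 and 440. Immediate early genes had the opposite order, at 2562 and 4972 FPKM with JQ1 and 4062 and 3077 FPKM with paclitaxel. JQ1 replicate 1 and paclitaxel replicate 2 were thus the libraries with more interferon response and less immediate early RNA, and the labels give no reason for this split.

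Scd1, a fatty acid desaturase, read 17.5 and 14.4 FPKM with JQ1 and 2.99 and 0.620 FPKM with paclitaxel (−2.73 ± 0.70, adjusted p = 0.194 in limma). Klf2, a transcription factor of quiescent T cells and endothelium, read 139 and 121 against 73.8 and 29.9 FPKM. Atf3, a stress-induced transcription factor, read 85.2 and 107 against 184 and 195 FPKM. The groups were apart in all 3 genes.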
